A study of Danio rerio with 24 samples.

Results

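In zebrafish larvae exposed to perfluorohexane sulfonate (PFHxS, a persistent fluorinated surfactant), 72 genes had opposite responses to the 25 µM dose in the 2 light regimes of the study. They were chosen from 32520 genes listed in both deposited tables. Of these, 16417 had a mean FPKM (sequenced fragments per gene, corrected for gene length and depth) of at least 1 in 2 or more of the 4 groups compared. A gene was kept when its mean at 25 µM, after adding 0.5 FPKM, was at least 1.4 times the vehicle mean in one photoperiod and at most 71.4% of it in the other. In 45 genes, 0.274% of those past the level filter, 25 µM was higher than vehicle in darkness and lower under the light-dark cycle. In 27 genes, 0.164%, the directions were the reverse. The 16 libraries of vehicle and 25 µM chose these genes, so their ratios between these groups are given as descriptions and carry no test.

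All fish were wild type, and each library is labelled as whole embryo at 120 h after fertilisation (120 hpf), when larvae already swim. Exposure had begun at 0.75 hpf, with 0.1% dimethyl sulfoxide (DMSO, the solvent) in every group, vehicle included. The 6 groups of 4 libraries combined 0, 0.0025 or 25 µM PFHxS with constant darkness (24 h dark) or with 14 h of light and 10 h of darkness per day, called the cycle here. Sample titles gave the photoperiod, since the treatment text names dark conditions for every sample. Libraries of darkness and of the cycle carry the names of separate library series, so photoperiod and series cannot be told apart. The labels do not say whether replicates came from separate clutches, so SDs and p-values measure the spread between these libraries, which may be technical.

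Library totals recovered from the tables were 8440914 to 14463117 fragments in darkness and 10090844 to 18531494 under the cycle. No pair of libraries was identical, and each library correlated with its group mates at a mean r of 0.944 to 0.962 over log2 values of genes. Marker lists of 14 cell types, expected in a whole larva, were looked up. The lens, neuron, hepatocyte, enterocyte and photoreceptor lists were detected in every library. The epithelial gene epcam, the haem enzyme alas2, the pancreas gene ctrb1 and the globins hbba1 and hbaa1 were at or near 0. The erythrocyte sum thus rested on slc4a1a. The keratinocyte sum rested on krt4 and cyt1, as krt5 had group means of only 0.41 to 1.24 FPKM. The muscle gene mylpfa had a mean of 0 FPKM in dark vehicle and 1.12 ± 0.74 FPKM in cycle vehicle.

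As background, PFHxS binds plasma proteins and can engage nuclear receptors of the liver. Light entrains the daily rhythm of most larval tissues, including the liver, the pituitary and the immune system. Melanin-concentrating hormone, deiodinases, cytokines and liver enzymes are all known to vary with light, stress hormones or feeding, and several of the genes described here belong to those families.

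Opposite responses were a small part of the 25 µM response. At the same 1.4-fold limit 964 genes passed in both photoperiods, of which 442 were higher in both, 450 were lower in both and 72 differed in direction. In darkness alone 11.7% of genes were at least 1.4-fold higher and 8.96% lower, and under the cycle 4.15% were higher and 5.7% lower. Among the 45 genes that were higher in darkness the median log2 ratio was 0.75 in darkness and -0.72 under the cycle. Among the 27 genes of the reverse kind these medians were -0.71 and 0.68, while the medians over all genes past the filter were -0.01 and -0.02.

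**Figure D1:**
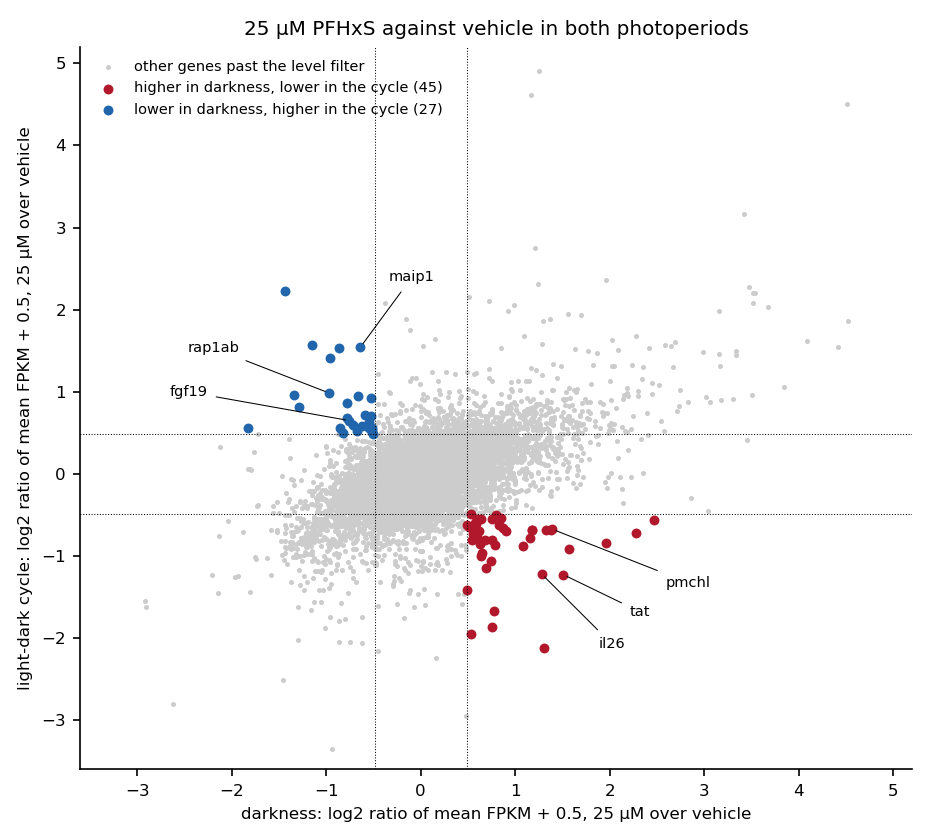
Log2 ratio of mean FPKM + 0.5 at 25 µM over vehicle in darkness (horizontal axis) against the same ratio under the light-dark cycle (vertical axis). Each point is 1 of 16417 genes past the level filter, the dotted lines mark the 1.4-fold limits, and the 45 red and 27 blue points are the genes of opposite response, which fill the lower right and upper left corners outside the main cloud.

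Whether the 4 libraries of 25 µM and the 4 of vehicle overlapped was then counted for each gene. In 5 of the 72 genes they did not overlap in either photoperiod, in 25 they did not overlap in 1 photoperiod, and in 42 they overlapped in both. Over all genes past the filter, 25 genes, 0.152%, had groups without overlap in both photoperiods that lay in opposite directions, 0.0853% with darkness higher and 0.067% with darkness lower. In darkness 12 of the 45 genes were without overlap, where 14.9% of all genes were with 25 µM higher, and under the cycle 9, where 4.83% were with 25 µM lower. For the 27 genes these numbers were 7 and 7, against 12.7% and 5.38%. The same libraries chose these genes by their ratios, while most of all genes are within the 1.4-fold limits. Part of any excess over all genes is thus fixed by the choice. The 5 genes without overlap in either photoperiod were tat, lmo3, mblac2, the placeholder si:dkey-22f5.9 and a clock gene. The clock gene nfil3-6, the opsin opn1mw2 and the stress gene fosaa belong to families that were set aside here, so they are counted among the 45 and not described further.

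The liver enzyme gene tat (ENSDARG00000069630, chromosome 18, 13162728 to 13179510) ranked first among genes with a name by the smaller of its 2 absolute log2 ratios. That value was 1.23, against 1.22 for il26. The gene tat codes for tyrosine aminotransferase, which carries out the opening step of tyrosine breakdown and, in mammals, is a classical glucocorticoid-induced gene. In the 4 dark vehicle libraries tat was at 4.73, 4.66, 4.93 and 4.76 FPKM, and in the 4 dark 25 µM libraries at 11, 12.8, 22.4 and 11.8 FPKM. Every exposed dark library lay above every dark vehicle library. Under the cycle, tat was at 13.1, 10.9, 20.1 and 8.17 FPKM in vehicle and at 3.47, 4.04, 6.63 and 7 FPKM at 25 µM. Here every exposed library lay below every vehicle library. The means were 4.77 ± 0.12 and 14.5 ± 5.29 FPKM in darkness and 13.1 ± 5.1 and 5.29 ± 1.79 FPKM under the cycle (SD, n = 4), log2 ratios of 1.51 and -1.23. The level at 25 µM in darkness was thus close to that of cycle vehicle, and the level at 25 µM under the cycle close to that of dark vehicle. In RNA from whole larvae, fewer cells of a type and less RNA per cell cannot be told apart for this and every other gene below. The summed hepatocyte markers (fabp10a, tfa, apoa1b and ahsg2) ran from 1985 to 2129 FPKM in dark vehicle, 1244 to 2427 at dark 25 µM, 1942 to 2193 in cycle vehicle and 1628 to 2720 at cycle 25 µM, so the sums overlapped between doses in both photoperiods. The sums cover unlike values of single markers. Means of ahsg2 were 4.38 ± 1.66 and 0.296 ± 0.133 FPKM in darkness and 12.8 ± 4.21 and 1.4 ± 0.81 FPKM under the cycle. Those of fabp10a were 703 ± 74 and 762 ± 282 FPKM in darkness and 739 ± 48 and 1164 ± 231 FPKM under the cycle, and those of tfa 367 ± 13 and 252 ± 102 FPKM in darkness. Their part in the tat values was not tested. In the list of 85 hepatocyte and plasma protein genes past the filter, tat was the only one with an opposite response. That is 1.18% of the list, resting on 1 gene, where 0.274% of all genes past the filter had this pattern. In darkness 17 of the list were higher and 21 lower, where 11.7% and 8.96% of all genes were. Under the cycle 4 were higher and 32 lower, where 4.15% and 5.7% of all genes were.

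Other metabolic genes followed with wider spread. For mlycd, malonyl-CoA decarboxylase of fatty acid oxidation, dark vehicle was at 1.08, 0.38, 2.45 and 0.29 FPKM and dark 25 µM at 3.85, 1.21, 3.75 and 2.29 FPKM. Its cycle libraries were at 0.566 to 1.06 FPKM in vehicle and at 0.0432 to 0.5 at 25 µM. The groups overlapped in darkness and not under the cycle. These cycle levels rested on a mean of 19.8 and 5.0 fragments per library. The pantothenate kinase family gene pank4 had means of 1.94 ± 1.13 and 3.62 ± 1.48 FPKM in darkness and 2.36 ± 1.15 and 1.13 ± 0.94 FPKM under the cycle, with overlapping libraries in both. The gene dpm2, a regulatory subunit of dolichol-phosphate-mannose synthase in protein glycosylation, had means of 1.5 ± 0.93 and 3.95 ± 3.58 FPKM in darkness and 1.23 ± 0.46 and 0.505 ± 0.369 FPKM under the cycle. Its dark 25 µM mean was carried by replicate 1 at 9.07 FPKM, with the other 3 at 1.32 to 3.74.

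The gene fgf19 had the reverse pattern. It codes for a hormone that in mammals is secreted by the ileum and represses bile acid synthesis in the liver. It was at 5.97, 6.88, 9.67 and 6.61 FPKM in dark vehicle, and at 6.30, 4.18, 2.01 and 3.98 FPKM at dark 25 µM. Under the cycle it was far lower, at 0.770, 0.945, 1.18 and 0.823 FPKM in vehicle against 2.11, 1.82, 1.38 and 1.63 at 25 µM. The cycle groups did not overlap, whereas in darkness replicate 1 at 25 µM lay among the vehicle libraries. The log2 ratios were -0.75 and 0.65. The gene lies at 54642005 to 54645564 on chromosome 7 and overlaps the annotated gene AL929586.1 on the other strand, and the strandedness of the counting is not given in the sources used here, so the fragments of the pair cannot be told apart. The summed enterocyte markers ran from 337 to 457 FPKM at dark 25 µM against 383 to 419 in dark vehicle, and from 297 to 380 at cycle 25 µM against 305 to 448 in cycle vehicle. These sums too cover unlike values of single markers. Means of vil1 in vehicle and at 25 µM were 55.8 and 35.7 FPKM in darkness and 22 and 18.8 under the cycle. Those of fabp2 were 21.2 and 20 in darkness and 4.43 and 3.05 under the cycle. Those of slc15a1b were 83.6 and 94.9 in darkness and 52.1 and 46 under the cycle. Their part in the fgf19 values was not tested. Of 30 intestine genes past the filter, fgf19 alone had an opposite response. That is 3.33% of the list, resting on 1 gene, where 0.164% of all genes had this pattern. In darkness 1 of the list was higher and 8 lower, where 11.7% and 8.96% of all genes were. Under the cycle 1 was higher and 6 lower, where 4.15% and 5.7% of all genes were. The cytochrome P450 gene cyp2aa4 had means of 4.77 ± 1.69 and 2.42 ± 1.1 FPKM in darkness and 3.84 ± 1.51 and 5.85 ± 2.04 FPKM under the cycle. Its libraries overlapped in both photoperiods. It was the only opposite-response gene among 160 genes of P450 and conjugation enzymes past the filter. That is 0.625% of the list, resting on 1 gene, where 0.164% of all genes past the filter had this pattern and 0.439% had either. On the chromosome cyp2aa4 overlaps its paralog cyp2aa8 on the same strand, so the fragments assigned to each are uncertain.

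Among 85 hormone and neuropeptide genes past the filter, pmchl and dio3b had opposite responses, both higher at 25 µM in darkness. That is 2.35% of the list, resting on 2 genes, where 0.274% of all genes past the filter had this pattern. The list was drawn up with earlier results of these data known, so this share is a description. The lowest group means of pmchl and dio3b rested on 14.5 and 112 fragments per library. In that list 46 genes were at least 1.4-fold higher and 3 lower in darkness, where 11.7% and 8.96% of all genes were. Under the cycle 21 were higher and 2 lower, where 4.15% and 5.7% of all genes were. The higher level in darkness was thus shared with many of the list and the lower level under the cycle was not. The gene pmchl (chromosome 5, 54685175 to 54685710) codes for a precursor of melanin-concentrating hormone, which pales the skin of fish by gathering pigment in melanophores. Dark vehicle libraries were at 3.69, 2.17, 1.43 and 4.65 FPKM and dark 25 µM libraries at 4.77, 10.6, 12.9 and 6.29. Cycle vehicle libraries were at 20.6, 34.8, 28.3 and 26.2 FPKM and cycle 25 µM libraries at 15.7, 15.6, 24 and 12.7. The dark groups did not overlap, and under the cycle 1 exposed library lay within the vehicle range. At each dose the cycle mean of pmchl was above the dark mean, 17.0 against 8.64 FPKM at 25 µM. Summed melanophore markers (tyrp1b, dct, pmela and tyr) were at 234.1 to 330.8 FPKM in the 12 dark libraries, counting all doses, and at 123.1 to 202 in the cycle libraries. Melanophores are the cells this hormone acts on, and how their markers relate to pmchl was not tested.

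The gene dio3b (chromosome 20, 53802521 to 53810638) codes for a deiodinase that inactivates thyroid hormone, and the tables class its transcript as processed rather than protein coding. It was at 4.29, 5.18, 4.96 and 3.90 FPKM in dark vehicle and at 10.3, 12.3, 13 and 8.52 FPKM at dark 25 µM, with no overlap. Under the cycle it was at 5.09, 9.08, 9.08 and 8.27 FPKM in vehicle and at 3.93, 4.39, 3.94 and 6.56 FPKM at 25 µM. The exposed cycle libraries were lower except for replicate 4, which lay above the lowest vehicle library. The log2 ratios were 1.18 and -0.69.

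**Figure D2:**
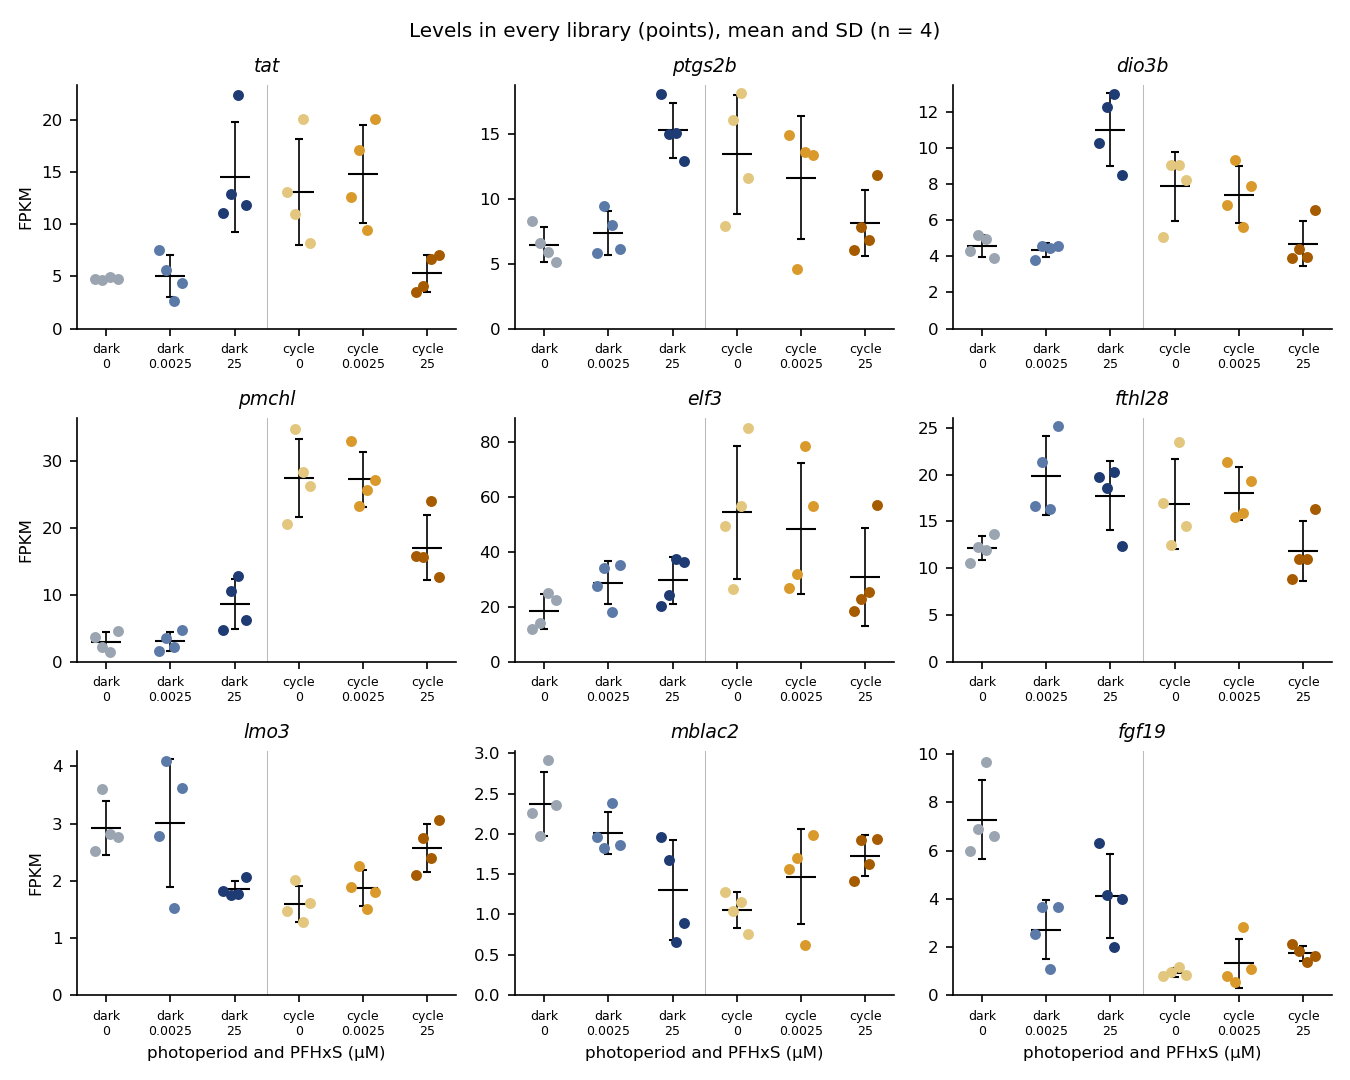
FPKM of 9 opposite-response genes in every library (points), with the mean and SD of 4 libraries per group, for 0, 0.0025 and 25 µM PFHxS in darkness (blue and grey) and under the light-dark cycle (yellow and brown). In tat the dark 25 µM points, at 11 to 22.4 FPKM, lie above all dark vehicle points, and the cycle 25 µM points, at 3.47 to 7, below all cycle vehicle points.

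Genes of inflammation were the largest group with a shared role. Of 223 genes of innate immunity and inflammation past the filter, 6 (2.69%) had opposite responses, all higher at 25 µM in darkness and lower under the cycle, a pattern held by 0.274% of all genes past the filter. In the whole list 48 were at least 1.4-fold higher and 31 lower in darkness, where 11.7% and 8.96% of all genes were. Under the cycle 7 were higher and 37 lower, where 4.15% and 5.7% of all genes were. The lists were drawn up with earlier results of these data known, so these shares are descriptions. Several other lists held no gene of opposite response, among them neuron and synapse, mitochondrial respiration and cell cycle. These 3 had 198, 185 and 169 genes past the filter. The 6 immune genes were the IL-10 family cytokines il26 and il19l, the neutrophil attractant cxcl8a, the chemokine cxcl19, the inducible prostaglandin synthase gene ptgs2b (a COX-2 paralog) and the IL-17 receptor relative il17rel. Lowest group means of il26, cxcl19, il19l, il17rel and cxcl8a were 2.25, 2.5, 7.25, 11 and 13.25 fragments per library. The median over all genes past the filter was 126, so all genes are a better covered background.

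The most abundant of them was ptgs2b. It was at 8.31, 6.60, 5.88 and 5.13 FPKM in dark vehicle and at 18.1, 15, 15.1 and 13 FPKM at dark 25 µM, with no overlap. Under the cycle it was at 7.93, 16.1, 18.2 and 11.6 FPKM in vehicle and at 6.05, 7.87, 6.86 and 11.8 FPKM at 25 µM, where 3 exposed libraries lay below every vehicle library and replicate 4 within their range. Its lowest group mean rested on 149 fragments per library, more than any other of the 6. The log2 ratios were 1.18 and -0.69.

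The cytokines were at lower levels. For il26 the dark vehicle libraries were at 0.182 to 0.687 FPKM and the dark 25 µM libraries at 0.824 to 3.15, without overlap. Under the cycle il26 ran from 0.339 to 3.8 FPKM in vehicle and from 0.248 to 1.8 at 25 µM, so that the groups overlapped. A dark vehicle library held a mean of 2.2 fragments of il26, so counting error alone is large there. For cxcl8a dark vehicle was at 1.38, 3.41, 0.613 and 2.87 FPKM and dark 25 µM at 6.49, 6.21, 6.41 and 4.71, again with no overlap. Its cycle libraries were at 3.8 to 12.7 FPKM in vehicle and at 1.87, 1.84, 6.10 and 8.23 FPKM at 25 µM, which overlapped. For il19l the means were 1.33 ± 0.47 and 2.92 ± 1.81 FPKM in darkness and 4.66 ± 3.02 and 2.69 ± 3.71 FPKM under the cycle. For cxcl19 the libraries were at 0.789, 0.668, 0.157 and 0 FPKM in dark vehicle and at 0.756 to 1.5 at dark 25 µM, and at 0.487 to 8.96 FPKM in cycle vehicle. Both genes overlapped in both photoperiods. The gene il17rel had means of 0.750 ± 0.345 and 1.25 ± 0.48 FPKM in darkness, with overlap, and of 1.34 ± 0.32 and 0.695 ± 0.161 FPKM under the cycle, without. It was the gene nearest to the 1.4-fold limit in darkness, at 1.402-fold.

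A single cycle library stood apart within this group. Replicate 4 of cycle 25 µM was the highest of its 4 libraries in all 6 genes, and in 24 of the 45 genes that were higher in darkness. The same count over all genes was not made, so this cannot be read as a trait of these genes. In cxcl19 replicate 4 was at 5.6 FPKM against 0.342 to 0.405 FPKM in the other 3, and in il19l at 8.21 against 0.276 to 1.18. Summed leukocyte markers (mpx, lyz, mpeg1.1 and marco, all 4 found in the tables, with lyz at 0 or near 0 in some libraries) were at 35.7 FPKM in that library and at 7.38, 11.3 and 18 in its mates. In cycle vehicle they were at 35.4, 19.2, 35.6 and 12.3 FPKM, and in the 12 dark libraries, counting all doses, at 10.2 to 21.3 FPKM. The same replicate had the lowest keratinocyte sum of any library, 511 FPKM against 1472 to 1662 in its mates. In its group it was also lowest in the lens, cone, rod, muscle, hepatocyte, enterocyte, pancreas, neuron, myelinating glia and cartilage sums. The hepatocyte sum was 1628 FPKM against 2078 to 2720, and the pancreas sum 4090 against 5440 to 6261. Its erythrocyte sum was the highest of the group and its melanophore sum lay among its mates. Replicate 4 thus differed from its mates in many marker sums, not in immune genes alone. Without it the log2 ratios under the cycle moved from -1.22 to -1.72 for il26, from -1.07 to -2.39 for cxcl19, from -0.69 to -1.94 for il19l, from -0.69 to -0.91 for ptgs2b, from -0.68 to -1.09 for cxcl8a and from -0.62 to -0.69 for il17rel. Leaving out a vehicle library moved some ratios in the other direction, by less in cxcl19 and il19l. Cycle vehicle replicate 3 was the highest of its group in 4 of the 6 genes, and without it the log2 ratios under the cycle shrank to -0.43 for cxcl19 and -0.33 for cxcl8a. Without cycle vehicle replicate 4 that of il19l shrank to -0.29. These 3 values are inside the 1.4-fold limit, so the 3 genes did not meet the rule without these libraries. The part of leukocyte number in these values was not tested.

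**Figure D3:**
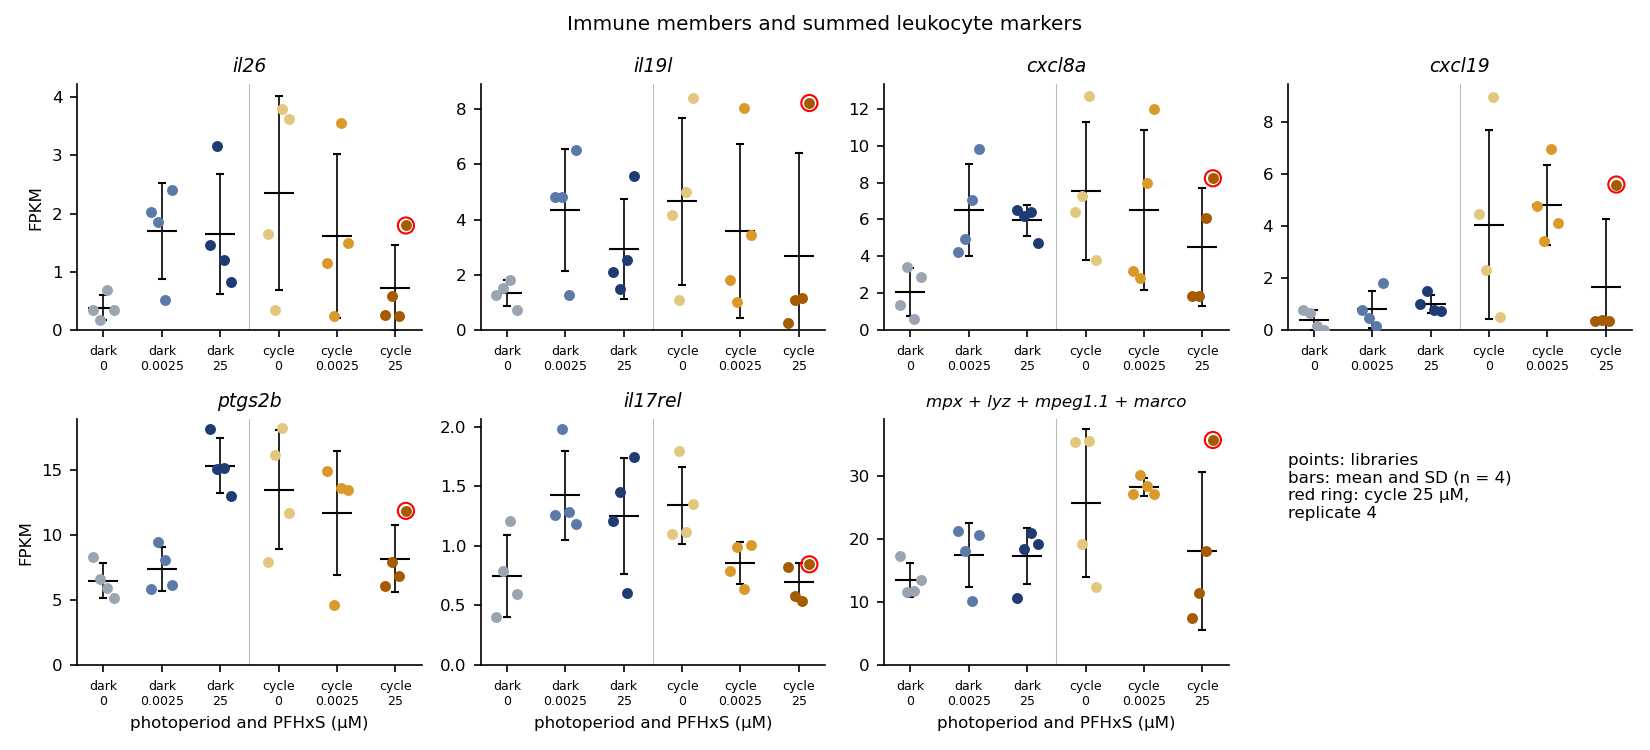
FPKM of the 6 inflammation genes and the sum of 4 leukocyte markers in every library (points) with mean and SD of 4 libraries, in darkness (blue and grey) and under the cycle (yellow and brown), with error bars clipped at 0. The red ring marks cycle 25 µM replicate 4, the highest of its group in every panel, with a marker sum of 35.7 FPKM.

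The gene elf3, an epithelial ETS transcription factor, was the most abundant gene of the 72, at 11.8, 14, 25.1 and 22.4 FPKM in dark vehicle and 20.4, 24.4, 37.4 and 36.4 FPKM at dark 25 µM. Under the cycle it was at 49.2, 26.4, 56.5 and 85 FPKM in vehicle and at 18.3, 22.7, 25.3 and 57.1 FPKM at 25 µM. The groups overlapped in both photoperiods, and the cycle group again had its highest value in replicate 4. Its log2 ratios were 0.68 and -0.81. The keratins krt93 and krt99, which build epithelial intermediate filaments and lie 108 kb apart on chromosome 11, had the reverse pattern. For krt99 dark vehicle was at 1.2 to 2.15 FPKM and dark 25 µM at 0.368 to 0.946, without overlap, while the cycle libraries overlapped at 0.210 to 0.687 FPKM in vehicle and 0.283 to 1.99 at 25 µM. For krt93 the means were 4.02 ± 0.70 and 2.51 ± 0.99 FPKM in darkness and 0.414 ± 0.198 and 0.995 ± 0.453 FPKM under the cycle, with overlap in both. They were the only ones of 67 epidermis and keratin genes with opposite responses, 2.99% of the list where 0.164% of all genes had this pattern. This list too was drawn up with earlier results known. The lowest group means of krt93 and krt99 rested on 9.25 and 10.75 fragments per library. In that list 1 gene was higher and 19 were lower in darkness, where 11.7% and 8.96% of all genes were. Under the cycle 2 were higher and 6 lower, where 4.15% and 5.7% of all genes were. The 2 higher ones were krt93 and krt99 themselves. Keratins have close paralogs, so their fragment assignment is uncertain. The summed keratinocyte markers, which rested on krt4 and cyt1, ran from 1855 to 2825 FPKM in dark vehicle and 774 to 1762 at dark 25 µM, without overlap, and from 925 to 1785 in cycle vehicle and 511 to 1662 at cycle 25 µM. Their part in the keratin values was not tested. The gene bsnd codes for barttin, a subunit of chloride channels of transporting epithelia. It had means of 2.38 ± 0.34 and 1.25 ± 0.52 FPKM in darkness, without overlap, and of 1.03 ± 0.38 and 1.82 ± 0.88 FPKM under the cycle, with overlap.

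Of 409 developmental transcription factor genes past the filter, her6 alone had an opposite response, higher in darkness and lower under the cycle. That is 0.244% of the list, where 0.274% of all genes had this pattern and 0.439% had either. The gene her6 codes for a Hes-type repressor that acts downstream of Notch. Its dark libraries overlapped, at 1.2 to 5.07 FPKM in vehicle and 2.03 to 8.84 at 25 µM, and its cycle libraries did not, at 2.69 to 5.69 FPKM in vehicle and 1.64 to 2.39 at 25 µM. Without replicate 1 of dark 25 µM its dark log2 ratio was 0.01. The LIM-domain cofactor gene lmo3 was one of the 5 genes with no overlap in either photoperiod. It was at 2.51, 3.61, 2.83 and 2.76 FPKM in dark vehicle and at 1.82, 1.75, 1.77 and 2.07 FPKM at dark 25 µM. Under the cycle it was at 1.48, 2.01, 1.28 and 1.61 FPKM in vehicle and at 2.10, 2.75, 2.39 and 3.06 FPKM at 25 µM. Its differences were small, with log2 ratios of -0.54 and 0.56. The gene mblac2, named for its metallo-beta-lactamase domain, was also without overlap, at 1.97 to 2.91 and 0.660 to 1.96 FPKM in darkness and at 0.752 to 1.28 and 1.41 to 1.94 FPKM under the cycle. In darkness its lowest vehicle library and its highest exposed library were nearly equal, at 1.97 and 1.96 FPKM.

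The placeholder si:dkey-22f5.9 (ENSDARG00000092044, chromosome 21, 30651064 to 30658520) is outside the naming rule and was singled out after its values were seen, as the best covered gene of the reverse set. It was at 12.7, 8.3, 10.6 and 14.4 FPKM in dark vehicle and at 5.41, 5.51, 1.61 and 4.41 FPKM at dark 25 µM. Under the cycle it was at 4.43, 5.52, 2.73 and 7.2 FPKM in vehicle and at 9.36, 9.59, 12.4 and 9.27 FPKM at 25 µM. Neither pair of groups overlapped, the log2 ratios were -1.34 and 0.96, and its lowest group mean rested on 114.5 fragments per library. Levels at 25 µM in each photoperiod were thus near those of vehicle in the other, as for tat in mirror image.

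The iron storage gene fthl28, a ferritin heavy chain relative, had means of 12.1 ± 1.28 and 17.7 ± 3.68 FPKM in darkness and 16.8 ± 4.81 and 11.8 ± 3.21 FPKM under the cycle, with overlap in both. Of 39 haemoglobin and haem genes past the filter it alone had an opposite response. That is 2.56% of the list, resting on 1 gene, where 0.274% of all genes had this pattern. The gene fthl28 lay just inside the limit, as its cycle vehicle mean was 1.41 times its 25 µM mean after adding 0.5 FPKM to each. Just outside were cldnf, 1.3975-fold higher in darkness and 1.396-fold lower under the cycle, and rgs13, at 1.396-fold and 1.561-fold. At the reverse edge gdpd1 and arl16 lay inside, at 1.419-fold and 1.433-fold lower in darkness and 1.403-fold and 1.42-fold higher under the cycle. The genes slc9a3r1b and mir29a-1 lay outside, at 1.395-fold and 1.372-fold lower in darkness. Genes on either side of the limit thus had nearly equal ratios.

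In several genes a single library decided the sign of a ratio or much of its size. For gdpd1, a lysophospholipase D, dark vehicle was at 1.69, 1.66, 1.44 and 9.05 FPKM and cycle 25 µM at 1.69, 7.64, 0.416 and 0.832. Without the highest library of each, its log2 ratios turned from -0.50 to 0.41 in darkness and from 0.49 to -0.60 under the cycle. For maip1, a partner of a mitochondrial protease, dark vehicle held 1 library at 6.28 FPKM and 3 at 0.406 to 1.46, and without it the dark log2 ratio turned from -0.64 to 0.32. Its cycle 25 µM group held 1 library at 4.38 FPKM and 3 at 0.267 to 0.554, and without it the ratio under the cycle went from 1.54 to 0.45. For the small GTPase gene arl16 the cycle ratio turned from 0.51 to -0.14 without replicate 3 of cycle 25 µM. For rap1ab, a Ras-related GTPase of cell adhesion, the cycle 25 µM libraries were at 1.55, 1.26, 1.19 and 5.56 FPKM, and without the last the log2 ratio went from 0.98 to 0.33. The genes rap1ab and pank4 lie 3.29 kb apart on chromosome 11 and had opposite patterns, the former lower and the latter higher in darkness. For mmgt1, a subunit of the membrane protein insertion complex of the endoplasmic reticulum, cycle vehicle held 1 library at 12.5 FPKM and 3 at 4.38 to 5.72. Without the highest, its log2 ratio under the cycle went from -0.70 to -0.28. The gene mmgt1 overlaps slc9a6a on the other strand.

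When each of the 16 libraries was left out in turn, 15 of the 72 genes met the rule every time, 10 of the 45 and 5 of the 27. Among those with a name and outside the families set aside these were tat, ptgs2b, il26, pmchl, dio3b, elf3 and pank4 in the first set and fgf19 in the second. The number of genes meeting the rule ranged from 40 to 81 for the first pattern and from 27 to 40 for the second, with 81 reached without cycle 25 µM replicate 4, 71 without dark vehicle replicate 3 and 68 without cycle vehicle replicate 4.

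Entries for microRNA genes were counted on their short precursors and had few fragments. The neuronal microRNAs dre-mir-124-3 and dre-mir-137-1 were among the genes higher in darkness and dre-mir-729 among the reverse set, each with group means of 1.0 to 5.5 fragments per library. In dre-mir-137-1 the dark 25 µM libraries were at 1.37, 9.81, 1.29 and 1.24 FPKM, and without the second the log2 ratio turned from 0.69 to -0.44. In dre-mir-729 the dark ratio turned from -0.51 to 0.28 without dark vehicle replicate 4. These values describe precursor loci at a depth near single fragments, and no order between groups can be read from them. The precursor of dre-mir-729 lies 45.8 kb from il26 on chromosome 4. Of 46 neighbouring pairs of the 72 genes on a shared chromosome, 2 lay within 100 kb, namely this one and rap1ab with pank4.

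The 72 genes as a whole were of low abundance. In 34 of them, 47.2%, the lowest of the 4 group means rested on under 10 fragments per library, against 4.68% of the 16417 genes past the filter. The median of that lowest mean was 10.6 fragments, against 126 over all genes. Protein-coding genes made up 79.2% of the 72 and 96.2% of all, and the rest were 4 small nucleolar RNAs, 3 microRNAs, 3 processed transcripts, 2 ribosomal RNAs, 2 long intergenic RNAs and 1 mitochondrial tRNA. In 16 the annotated length was under 300 bases, and 18 overlapped another annotated gene. Placeholder names were carried by 16 of the 45 and 15 of the 27. Only 4 genes of the first set and 1 of the second had at least 100 fragments in every group mean. The part of counting error in the opposite signs was not tested. Another 8 members with a name, which are outside the naming rule, were emc2, hepacam2, kctd9a, s100a1, ch25h, noxo1a, tmem106a and gtf2a2. All 8 were among the genes higher in darkness, with log2 ratios of 0.55 to 0.87 in darkness and -0.55 to -1.0 under the cycle.

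**Figure D4:**
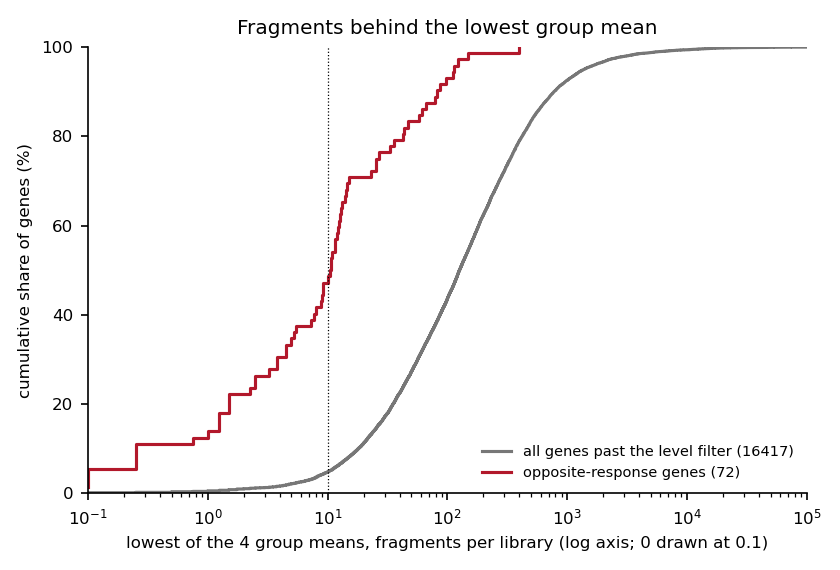
Cumulative share of genes (vertical axis, %) by the fragments per library behind the lowest of their 4 group means (horizontal log axis, 0 drawn at 0.1). The red line of the 72 opposite-response genes reaches 47.2% at the dotted line of 10 fragments, where the grey line of all 16417 genes stands at 4.68%.

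Vehicle levels of these genes differed by photoperiod in a set order. Of the 45 genes higher at 25 µM in darkness, 40 were lower in dark vehicle than in cycle vehicle, and of the 27 reverse genes all 27 were higher in dark vehicle. At 25 µM the order was turned, with 39 of the 45 higher and 22 of the 27 lower in darkness. The same vehicle libraries entered the rule, so part of this order is fixed by the choice of genes. The 0.0025 µM libraries, which the rule did not use, gave another picture. There 21 of the 45 were lower in darkness, and 26 of the 45 and 17 of the 27 had the order of the vehicle groups. The median log2 ratio of darkness over the cycle was -0.99 in vehicle, 0.06 at 0.0025 µM and 0.73 at 25 µM for the 45 genes, and 1.21, 0.30 and -0.40 for the 27.

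The low dose was next set beside the high one within each photoperiod, sharing the vehicle libraries of the rule. The mean at 0.0025 µM lay between those of vehicle and 25 µM in 23 of the 45 genes in darkness and 31 under the cycle, and in 18 and 19 of the 27. The rule chose genes whose vehicle and 25 µM means lie apart, and the same count over all genes was not made. These numbers therefore cannot be read as a graded response to dose. In 25 of the 45 genes the 0.0025 µM mean was also at least 1.4-fold above vehicle in darkness, where 2.56% of all genes were, and in 14 it was 1.4-fold below under the cycle, where 2.16% of all genes were. For the 27 genes these numbers were 12 in darkness and 10 under the cycle, against 2.21% and 1.78% of all genes. The ratios of both doses share their vehicle libraries, so these counts are no separate evidence of a response. Named genes differed in this respect. In tat, ptgs2b, dio3b and pmchl the 0.0025 µM means of 5.03, 7.38, 4.35 and 3.04 FPKM in darkness were near the vehicle means of 4.77, 6.48, 4.58 and 2.99. In il26, il19l and cxcl8a the 0.0025 µM means in darkness, 1.70, 4.35 and 6.52 FPKM, were instead as high as or higher than the 25 µM means of 1.66, 2.92 and 5.96.

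With the 0.0025 µM libraries in place of vehicle the rule was met by 44 genes of the first pattern (0.268% of genes) and 23 of the second (0.14%), and 12 of the 72 genes met it against both comparators. The 25 µM libraries are shared between these comparisons. With a name these were tat, pank4, ptgs2b, dio3b, pmchl, kctd9a, dre-mir-124-3 and gdpd1, of which kctd9a lies outside the naming rule. Against 0.0025 µM the log2 ratios of tat were 1.44 in darkness and -1.40 under the cycle, without overlap in either photoperiod. For dio3b they were 1.25 and -0.61, for ptgs2b 1.01 and -0.49 and for pmchl 1.37 and -0.66, each without overlap in darkness and with overlap under the cycle.

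The photoperiod difference at 0.0025 µM, on the 8 libraries that did not choose the genes, was the one contrast that could be tested. FPKM of both tables was brought to one scale, and darkness was compared with the cycle by limma (linear models with moderated variances) on log2(FPKM + 0.1), with Benjamini-Hochberg adjustment over 18391 genes and a threshold of 0.05. Of all genes tested, 1686 (9.17%) passed as higher and 1554 (8.45%) as lower in darkness, 17.6% in either direction. Of the 72 genes 68 could be tested and 9, or 13.2%, passed, 4 higher and 5 lower in darkness. That share is no higher than the 17.6% of all genes. The libraries of darkness and the cycle did not overlap in 8 of the 45 genes and 3 of the 27, while over all genes past the level filter 12.2% were without overlap and higher in darkness and 12.2% without overlap and lower. All 9 that passed kept the order of the vehicle groups. The same share among all genes that passed was not counted, so this cannot be read as a trait of the 72.

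Of the 45 genes higher at 25 µM in darkness, 5 passed as lower in darkness at 0.0025 µM, 1 of them the opsin set aside above. The largest difference was in pmchl, at 1.61, 3.62, 2.26 and 4.67 FPKM in the dark libraries and 32.9, 23.3, 25.7 and 27.2 under the cycle, lower in darkness by a log2 difference of -3.22 ± 0.29 (SE, limma adjusted p = 0.000147). The dark and cycle libraries were far from overlapping. For cxcl19 the dark libraries at 0.776, 0.464, 0.158 and 1.80 FPKM were below the cycle libraries at 4.77, 3.44, 6.98 and 4.11, a log2 difference of -2.76 ± 0.53 (limma adjusted p = 0.0073). The other inflammation genes did not pass, with log2 differences of 0.34 for il26, 0.45 for il19l, 0.18 for cxcl8a, -0.54 for ptgs2b and 0.67 for il17rel. In the list of 258 immune genes tested, 11 passed as higher and 42 as lower in darkness, where 9.17% and 8.45% of all genes did. For tat the dark libraries at 7.48, 5.65, 2.61 and 4.38 FPKM lay below the cycle libraries at 12.6, 17.1, 9.47 and 20.1, a log2 difference of -1.58 ± 0.33 (limma adjusted p = 0.0105). For dio3b the levels were 3.82, 4.56, 4.44 and 4.60 FPKM against 6.86, 9.32, 5.64 and 7.91, a log2 difference of -0.74 ± 0.16 (limma adjusted p = 0.0138). In tat, pmchl and dio3b the vehicle libraries had the same order of photoperiods as the 0.0025 µM libraries.

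In the other direction, dpm2 was higher in darkness at 11.3, 5.23, 2.21 and 8.20 FPKM against 0.984, 1.11, 0.858 and 0.205 under the cycle, a log2 difference of 2.89 ± 0.56 (limma adjusted p = 0.00756). Among the 45 it was the only one that passed as higher in darkness. Of the 27 reverse genes 3 passed, all higher in darkness. For gdpd1 the log2 difference was 2.52 ± 0.49 (limma adjusted p = 0.0079), with dark libraries at 1.44 to 5.98 FPKM and cycle libraries at 0.163 to 0.737. For krt93 it was 1.71 ± 0.39 (limma adjusted p = 0.0151), with 1.79 to 5.58 FPKM against 0.642 to 1.48. The third was the placeholder si:ch73-185c24.2, at 3.37 ± 0.79 (limma adjusted p = 0.0181). Its dark libraries were at 3.34 to 6.72 FPKM and its cycle libraries at 1.75, 0.225, 1.07 and 0. These cycle levels rested on a mean of 9.75 fragments per library. The log2 ratio of its means + 0.5 FPKM was smaller, at 2.22. Of 70 epidermis and keratin genes tested, 4 passed as higher, krt93 among them, and 14 as lower in darkness. Over all genes tested these shares were 9.17% and 8.45%. The genes fgf19 (1.1 ± 0.51, limma adjusted p = 0.173), lmo3 (0.59 ± 0.29, adjusted p = 0.204), krt99 (0.77 ± 0.42, adjusted p = 0.251), mblac2 (0.52 ± 0.32, adjusted p = 0.31) and mmgt1 (0.997 ± 0.342, adjusted p = 0.0754) did not pass. In fgf19 the dark 0.0025 µM libraries, at 1.06 to 3.66 FPKM, lay below all 4 dark vehicle libraries and overlapped the cycle libraries at 0.556 to 2.81. Since the library series changes with the photoperiod, these differences cannot be assigned to light alone.

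**Figure D5:**
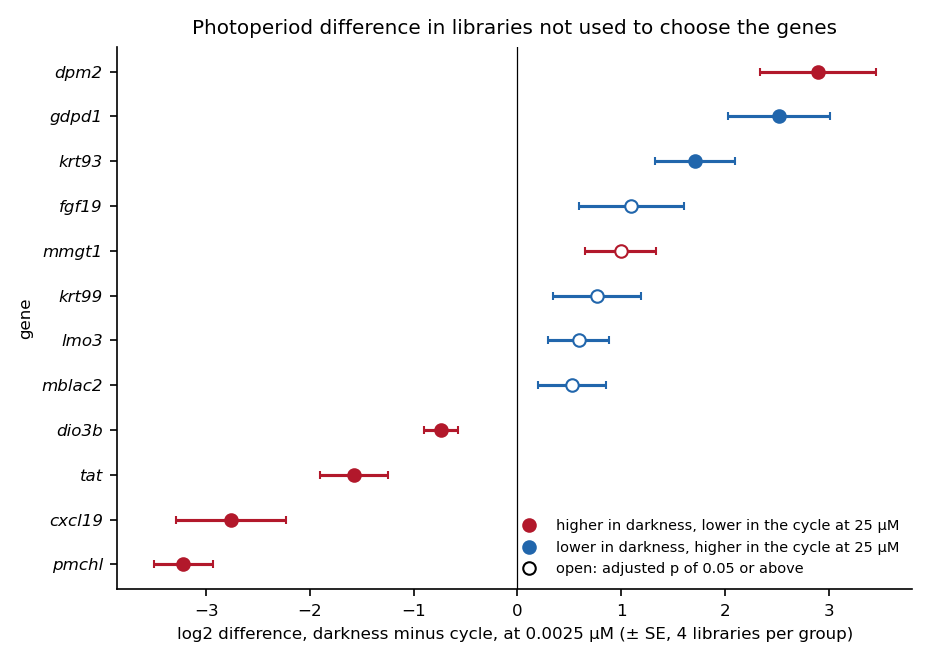
Log2 difference of FPKM + 0.1 between darkness and the cycle at 0.0025 µM (horizontal axis, ± SE, 4 libraries per group) for 12 named genes of opposite 25 µM response (vertical axis). Filled points passed an adjusted p of 0.05, red genes were higher at 25 µM in darkness and blue genes lower, and pmchl at -3.22 and dpm2 at 2.89 lie at the ends.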

How the data were processed

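RNA sequencing of 24 libraries was used. Per the submitters' processing notes, HISAT2 2.0.5 did the alignment and featureCounts 1.5.0-p3 the counting over genes. The authors deposited FPKM in 2 tables, 1 per photoperiod. Coordinates are those of the tables, whose genome build is not given in the sources used here. Fragments were recovered from FPKM times gene length, which was a whole number of equal steps in 100% of values (tolerance 0.001). Dates had taken the place of 19 gene names, and genes were joined by identifier.

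The members and the 28 gene lists were chosen with earlier results of these data known. Ratios are of group means + 0.5 FPKM. The test at 0.0025 µM used limma 3.58.1 in R 4.3.3 on log2(FPKM + 0.1), after median-of-ratios scaling over the 8 libraries (factors 0.99 to 1.02), for genes with at least 0.5 FPKM in at least 4 libraries, two-sided. The script was run on simulated data with known changes. That simulation used a fixed spread and far fewer changed genes than were called here, so it gives no error rate for these data. Python 3.11.15 with pandas 2.3.3 was used otherwise.

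Named genes have a symbol that is no placeholder and lie outside the clock, opsin and stress families. Per direction they are the 12 with the largest smaller ratio, those without overlap in both photoperiods ahead of the rest. Added were up to 3 per list, up to 6 per direction by adjusted p at 0.0025 µM, and 2 genes on each side of the limit. Alternatives were other pseudocounts, fold limits, level filters, medians, scalings, limma-voom, a replicate block and each library left out. Promoter motifs were not analysed here.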

Additional observations from a re-analysis of the deposited data

Results flagged for a closer look

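Within groups of 4 libraries, 18 of 180 groups of the named genes, or 10%, had a library apart from the rest. Its gap to the nearest neighbour exceeded Dixon's 95% critical value. The 1 in 20 that this limit gives by chance cannot be set against the 10%. The rule chose the genes on means of vehicle and 25 µM that 1 library can move, and many values rest on few fragments. Groups at 0.0025 µM, which the rule did not use, were among those flagged too. What set these libraries apart was not tested. At 25 µM in darkness the libraries apart were tat at 22.4, cxcl8a at 4.71, dre-mir-137-1 at 9.81, gdpd1 at 4.89 and pank4 at 1.4 FPKM. At 25 µM under the cycle they were cxcl19 at 5.6, il19l at 8.21, maip1 at 4.38 and rap1ab at 5.56 FPKM, the first, second and last of them in replicate 4. In dark vehicle they were arl16 at 4.28 and gdpd1 at 9.05 FPKM, and in cycle vehicle mmgt1 at 12.5 FPKM. At 0.0025 µM in darkness they were il17rel at 1.98 and maip1 at 3.69 FPKM, and under the cycle arl16 at 2.21, gdpd1 at 0.163, maip1 at 2.06 and ptgs2b at 4.59 FPKM.

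In 5 genes the 25 µM and vehicle libraries did not overlap in either photoperiod and lay in opposite directions. The difference was not tested, because these libraries chose the genes.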

How the results depend on the processing

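The number of genes meeting the rule (45 and 27) depended on its settings. With a pseudocount of 0.1 it was 82 and 42, and with 1 it was 29 and 15. A fold limit of 1.2 gave 268 and 143, of 1.5 gave 29 and 13, and of 2 gave 3 and 2. With no level minimum there were 99 and 74, and with at least 5 FPKM 11 and 1. Group medians gave 80 and 38, equal total fragments 41 and 30. Leaving out 1 library gave 40 to 81 and 27 to 40. The cause was not tested.

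Ratios that changed sign when 1 library was left out ranged from -0.14 to 0.80 (arl16, cycle), -0.44 to 2.09 (dre-mir-137-1, dark), -1.55 to 0.28 (dre-mir-729, dark), -1.04 to 0.41 and -0.60 to 0.79 (gdpd1, dark and cycle) and -1.22 to 0.32 (maip1, dark).

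At 0.0025 µM, genes that passed as lower in darkness numbered 993 to 1456 with 1 library left out (main 1554), 993 without cycle replicate 4 and 1011 without cycle replicate 1. With all 24 libraries in 1 fit 7 of the 72 genes passed as higher in darkness (main 4). Between darkness and the cycle at 0.0025 µM, same-numbered libraries did not deviate together (r from -0.14 to 0.02). Whether the numbers pair libraries of different doses within a photoperiod was not examined. With a replicate block in the 0.0025 µM test, 1373 genes passed as higher and 1219 as lower in darkness, 6 and 5 of them among the 72. Without 1 library adjusted p reached 0.0455 for fgf19, 0.0281 for lmo3 and 0.0433 for mmgt1, which limma-voom put at 0.0317. In 34 genes a group mean rested on under 10 fragments per library, and the part of counting error in their values was not tested.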
